A study of Mus musculus with 3 samples.

Results

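The canonical histone genes encode the proteins that package DNA into nucleosomes, and their RNA was compared between the rostrums of *tuft* and wild-type mouse embryos. Members were all symbols of the count tables that begin with *Hist1h* to *Hist4h* and that had at least 1 count in both libraries together, split by protein class and by cluster number. Of 68 such symbols 57 qualified, among 17140 symbols with a count and 24062 symbols in all. The 3 members nearest the limit, *Hist1h1t*, *Hist1h2bg* and *Hist2h2ab*, each had 2 counts in wild type and 0 in *tuft*, and the 11 symbols outside it had 0 in both.

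RNA was taken at E9, with 18 to 22 somites by the labels, from the anterior part of the head. The *tuft* group consisted of *tuft/tuft* embryos, homozygous for a point mutation of *Tet1* that arose spontaneously in the 3H1 Balb colony, and these embryos were picked for their neural tube defect. The wild-type group had the 3H1 Balb background without the mutation. For each library RNA of 3 embryos was pooled and put through poly-A selection. The labels list 2 *tuft* samples, but 1 count column per genotype was analysed, and which *tuft* sample that column holds, or whether it sums them, is not known. No value therefore has a replicate error and no test between genotypes was possible. The rostrum holds neuroectoderm, mesenchyme, surface ectoderm and blood, and in such bulk RNA fewer cells of a type and less RNA per cell cannot be told apart.

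A nucleosome wraps DNA around a core of the histones H2A, H2B, H3 and H4, and the linker histone H1 binds where the DNA enters and leaves it. Most canonical histone genes lie in clusters, lack introns and are transcribed mainly in S phase, when new DNA has to be packaged. Their mRNAs end in a conserved stem-loop that is bound by the protein SLBP in place of a poly(A) tail, although some of these genes can also give longer transcripts with a tail.

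The stem-loop word of 16 bases, GG, 2 free bases, CTT, 1 free base, T, 1 free base, AG, 1 free base and GCC, was searched on the transcript strand of annotated 3′ UTRs of GENCODE vM1 (NCBIM37). It was found in 48 of 19818 genes with a searched UTR (0.242%) and in 39 of the 48 members with one. In 25 of the 39 the word was the same, and 7 versions of it occurred in all. The members below, picked after their values were seen, include some that were higher and some that were lower in *tuft* and show 5 of the 7 versions. Capitals mark the word and lower case the neighbouring bases of the transcript.
Hist1h1e: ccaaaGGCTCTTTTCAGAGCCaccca
Hist1h1c: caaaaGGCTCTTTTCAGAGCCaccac
Hist1h2bh: ccaaaGGCTCTTTTCAGAGCCactc
Hist2h2ac: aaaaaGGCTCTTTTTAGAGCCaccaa
Hist3h2a: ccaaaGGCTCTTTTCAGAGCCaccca
Hist1h3e: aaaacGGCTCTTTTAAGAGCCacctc
Hist1h4c: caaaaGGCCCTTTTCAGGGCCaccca
Hist1h4d: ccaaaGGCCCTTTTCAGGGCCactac
Hist2h4: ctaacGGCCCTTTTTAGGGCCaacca
*Hist1h1e*, with 756 counts in *tuft* against 120 in wild type, and *Hist3h2a*, with 13 and 104, carried the same 26 bases, so the letters of the loop did not separate members that were higher from those that were lower.

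The wild-type library held 14251942 counts on genes and the *tuft* library 6433067, so wild type was 2.22 times as deep. A count of 0 allows up to 3 counts, or 0.210 counts per 1000000 counts on genes (CPM) in wild type and 0.466 in *tuft*. Counts were scaled by a trimmed mean of log ratios (TMM), a factor of 0.761 for *tuft* relative to wild type. A fold is *tuft* over wild type with its exact 95% interval (Clopper-Pearson). The interval covers counting error only, since each genotype has 1 library. Reads carried no molecular identifiers, so copies of a molecule could not be set apart and the interval may be too narrow. Zeros in *tuft* were common, at 70.1% of all symbols with 10 to 33 wild-type counts, and can hold more than counting error. A member is called past 2-fold where its fold was above 2 or below 1/2 and its interval did not reach 1. *Tet1* had 32 counts in *tuft* against 435 in wild type, a fold of 0.214 (0.145 to 0.307).

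Canonical histone RNA was higher in the *tuft* library. All members together had 3459 counts in *tuft* against 1220 in wild type, or 538 and 85.6 CPM, a fold of 8.26 (7.73 to 8.82). Of the 57 members 29 were past 2-fold higher (50.9%), 4 were past 2-fold lower (7.02%), of which 2 by a count of 0 in *tuft*, and 24 were neither. Among all 17140 symbols with a count 17.4% were past 2-fold higher and 32.6% lower. Despite the shallower library, 26 members had more raw counts in *tuft* than in wild type (background 12.5%), and 17 were past 10-fold higher (background 2.61%).

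The fold was not the same over the members. In the 42 members with counts in both libraries the log2 fold ran from -1.78 to 6.11, with a median of 2.76, beside -0.05 over the 11569 symbols with counts in both. This leaves out the 15 members at 0 in *tuft*. With counts under 3 set at 3, the median was 1.43 over the 53 members with more than 3 counts in either library. Over the 15225 such symbols it was -0.248. Sorted by wild-type counts alone, a split added after the values had been seen, 6 of the 10 members with 30 or more were past 2-fold higher and 3 lower, where the background was 21.0% and 38.4%. Of the 25 members with 10 to 29 wild-type counts 18 were higher and 1 lower (background 14.6% and 56.5%), and of the 22 with fewer 5 were higher and none lower (background 4.97% and 0.0%). With under 10 counts in wild type no gene could be called lower, since even at 0 against 12 counts the interval reached 1.05.

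**Figure D1:**
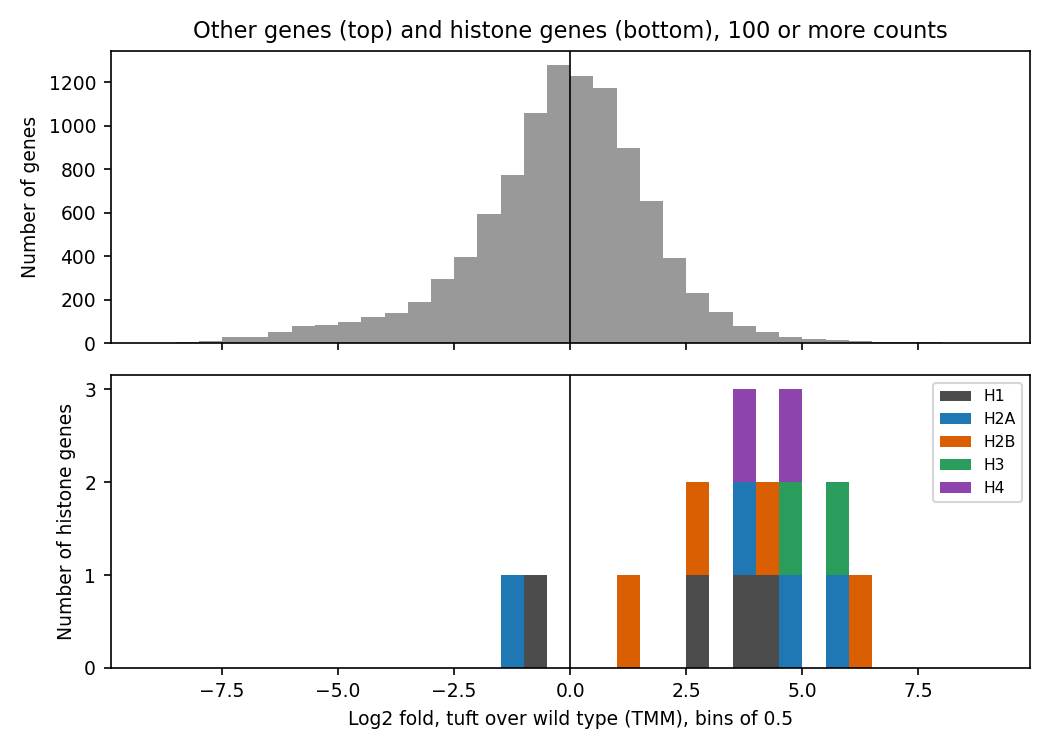
Histograms of the log2 fold (*tuft* over wild type, TMM, bins of 0.5) for genes with a sum of 100 or more counts and at least 1 count per library, with 10183 other genes above and 16 histone genes, coloured by class, below. The other genes centre near 0, whereas 14 of the 16 histone genes lie above 1. The *tuft* counts are part of the sum by which genes were taken in.

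The linker histones H1 bind the nucleosome from outside and compact the chromatin fibre. The 6 H1 members had 1078 counts in *tuft* against 354 in wild type, a fold of 8.87 (7.86 to 10.03), and 4 of them were past 2-fold higher and none lower. *Hist1h1e*, which encodes H1.4, had 756 counts in *tuft* against 120 in wild type, or 118 and 8.42 CPM, a fold of 18.3 (15.1 to 22.4). *Hist1h1e* alone held 21.9% of the histone counts of *tuft* and 9.84% of those of wild type. *Hist1h1b* (H1.5) followed with 126 and 29 counts, 12.7-fold (8.40 to 19.7). *Hist1h1d* (H1.3) had 139 and 58 counts, 6.98-fold (5.10 to 9.65), and *Hist1h1a* (H1.1) 32 and 35, 2.66-fold (1.60 to 4.43).

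*Hist1h1c* (H1.2) stood apart from these 4 linker genes. It had 25 counts in *tuft* against 110 in wild type, a fold of 0.662 (0.411 to 1.03), and was not past the limit in either direction. It was second to *Hist1h1e* in wild type, and in *tuft* it had the fewest counts of the 5 somatic linker genes. The testis form *Hist1h1t* had 0 and 2 counts.

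H2A and H2B form the dimers that flank the core of the nucleosome. The 14 H2A members had 569 counts in *tuft* against 222 in wild type, a fold of 7.46 (6.38 to 8.76), with 6 higher and 1 lower. *Hist2h2ac* had 177 and 11 counts, 46.9-fold (25.6 to 95.6). *Hist1h2ag* had 197 and 23 counts, 24.9-fold (16.2 to 40.3), and *Hist1h2ak* 113 and 23, 14.3-fold (9.08 to 23.5). A further 3 genes with fewer counts, *Hist1h2ab*, *Hist1h2ad* and *Hist1h2ah*, were also past 2-fold higher, with 22, 18 and 22 counts in *tuft* against 14, 4 and 3 in wild type. The 7 members in neither direction were scarce throughout, with 0 to 3 counts in *tuft* and 2 to 10 in wild type.

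*Hist3h2a* was the only H2A member past 2-fold lower. It had 13 counts in *tuft* against 104 in wild type, or 2.02 and 7.30 CPM, a fold of 0.364 (0.188 to 0.650). In RefSeq its span overlaps *Trim17*. Since no strand setting of the counting is given in the sources used here, reads of overlapping genes cannot be told apart.

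The 15 H2B members had 1000 counts in *tuft* against 296 in wild type, a fold of 9.84 (8.63 to 11.2), with 8 higher and none lower. *Hist1h2bh* had 356 and 15 counts, or 55.3 and 1.05 CPM, 69.1-fold (41.3 to 125), which was the highest fold of any member. Per kilobase of its annotated transcript this was 127 CPM in *tuft* and 2.41 in wild type, beside 157 and 11.3 for *Hist1h1e*. *Hist1h2bf* had the second highest fold, 60.2 (19.7 to 299.8), but from 62 and 3 counts. *Hist2h2bb* had 235 and 33 counts, 20.7-fold (14.4 to 30.8), *Hist2h2be* 99 and 41, 7.03-fold (4.84 to 10.4), and *Hist3h2ba* 74 and 80, 2.69-fold (1.94 to 3.74). *Hist3h2ba* overlaps the predicted gene *Gm51864*. The other higher members, *Hist1h2be*, *Hist1h2bj* and *Hist1h2bk*, had 21 to 65 counts in *tuft* and 10 to 27 in wild type, and the 7 in neither direction 0 to 14 and 2 to 29.

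H2A and H2B genes often lie back to back around a shared promoter. On GRCm38, 12 pairs lay within 500 bases of each other, with gaps of 163 to 280 bases, and 9 of them had counts in both genes. Over all 12 pairs, both genes were past 2-fold higher in 4, neither gene was past the limit in 6, and only the H2A gene was called higher in 1. That gene was *Hist1h2ak*, whose neighbour *Hist1h2bn* had 0 counts in both libraries and could not be called. The 6 include the pair *Hist1h2ao* and *Hist1h2bq*, without any count, and *Hist1h2aa*, whose neighbour *Hist1h2ba* had none. The members of a pair could still differ. *Hist1h2ag* had 197 and 23 counts, 24.9-fold, whereas its neighbour *Hist1h2bj* had 21 and 19, 3.22-fold (1.65 to 6.33). The pair *Hist1h2ad* and *Hist1h2bf* had 18 and 4 counts and 62 and 3 counts. In the last pair *Hist3h2a* was lower and its neighbour, the pseudogene *Hist3h2bb-ps*, had 0 counts in *tuft* against 4 in wild type.

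H3, whose tail carries many of the known chromatin marks, had 10 members with 398 counts in *tuft* against 106 in wild type, a fold of 10.9 (8.80 to 13.7). None was lower and 4 were higher. *Hist1h3b* had 109 and 7 counts, 45.3-fold (21.3 to 115), and *Hist1h3e* 180 and 19, 27.6-fold (17.2 to 46.9). *Hist1h3d* and *Hist1h3c* had 48 and 54 counts in *tuft* against 12 and 21 in wild type. The class was split in *tuft*, since these 4 genes held 391 of its 398 counts, and 4 of the other 6, with 6 to 12 counts in wild type, had none in *tuft*. At 0 against 12 counts the interval reached 1.05, so the genes without a count in *tuft* could not be called lower.

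H4, the partner of H3 in the central tetramer, showed members in both directions. Its 12 members had 414 counts in *tuft* against 242 in wild type, a fold of 4.98 (4.24 to 5.86). This interval lay below those of the other 4 classes, but it covers the counting error of a sum and not the spread between genes. The median fold over genes with counts in both libraries was 5.73 in H4, beside 4.58 in H2A, 4.60 in H2B, 6.98 in H1 and 9.34 in H3. With counts under 3 set at 3, H4 had the lowest median log2 fold, 1.29, beside 1.54 to 2.80 in the other classes. *Hist1h4j* had 137 and 14 counts, 28.5-fold (16.4 to 53.5), *Hist1h4c* 86 and 18, 13.9-fold (8.30 to 24.6), and *Hist1h4a* 67 and 6, 32.5-fold (14.2 to 91.7). Another 4 genes, *Hist1h4f*, *Hist1h4h*, *Hist1h4i* and *Hist1h4k*, were higher with folds of 2.31 to 7.04.

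The other 3 of the 4 members past 2-fold lower were H4 genes. *Hist2h4* had 7 counts in *tuft* against 64 in wild type, a fold of 0.318 (0.123 to 0.695). *Hist1h4d* had 0 and 33 counts, a fold of 0 with an upper limit of 0.344, and was 3.78-fold lower with *tuft* set at 3 counts. *Hist4h4* had 0 and 13 counts and was called with its fold taken as 0, with an upper limit of 0.955. With *tuft* set at 3 counts it was 1.49-fold lower, which is short of 2-fold. Within the Hist1 cluster alone the 10 H4 genes had 407 and 165 counts, a fold of 7.18 (5.98 to 8.66), an interval that overlaps those of H1 (7.86 to 10.03) and H2A (8.45 to 13.2) in that cluster and lies below those of H2B (10.4 to 15.1) and H3 (9.29 to 14.6).

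**Figure D2:**
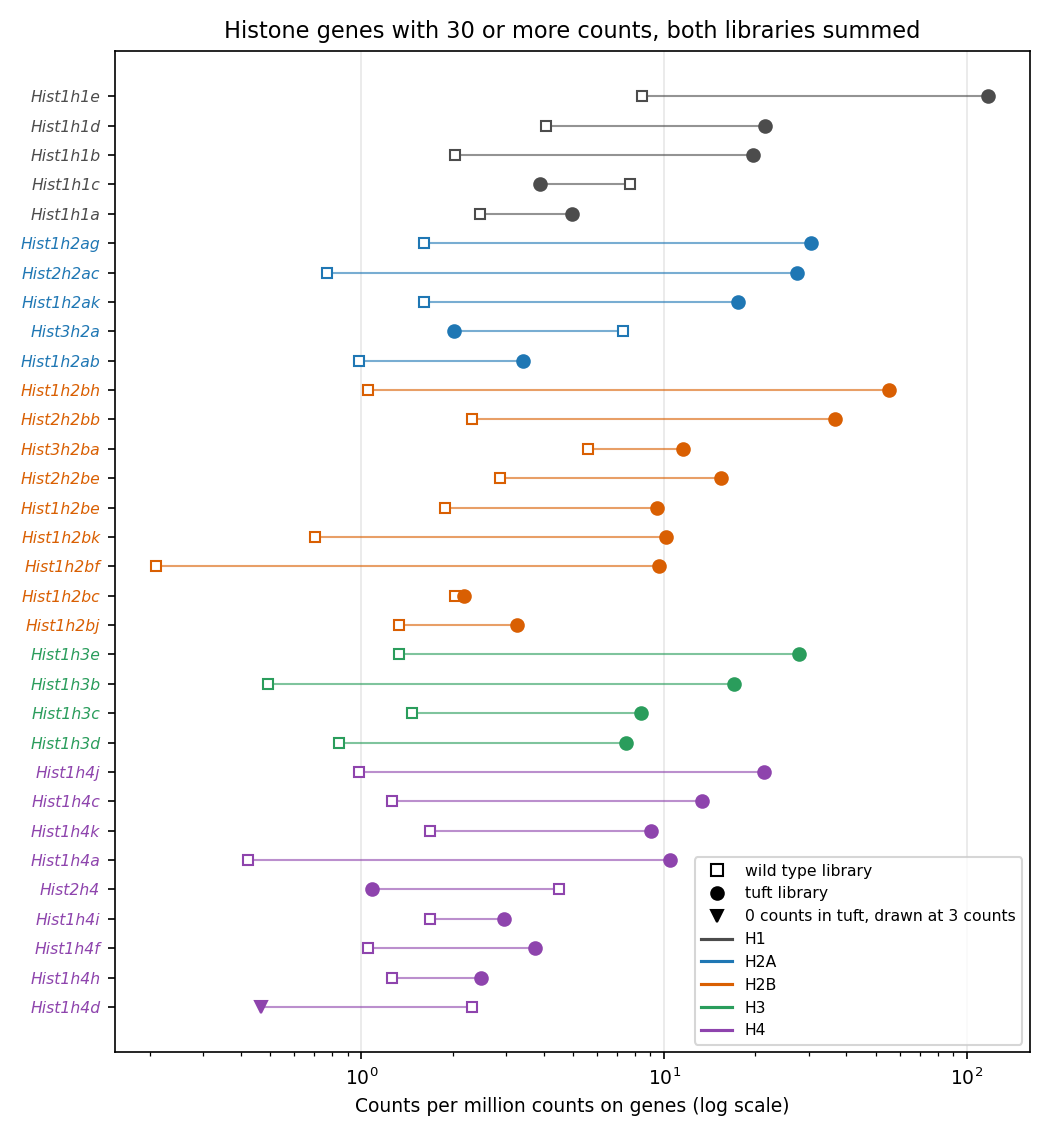
Counts per 1000000 counts on genes (log axis) of the 32 histone genes with a sum of 30 or more counts, with open squares for wild type and filled circles for *tuft*, joined by a line and coloured by class. The circle lies to the right of the square except in *Hist1h1c*, *Hist3h2a*, *Hist2h4* and *Hist1h4d*, the last drawn at 3 counts.

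**Figure D3:**
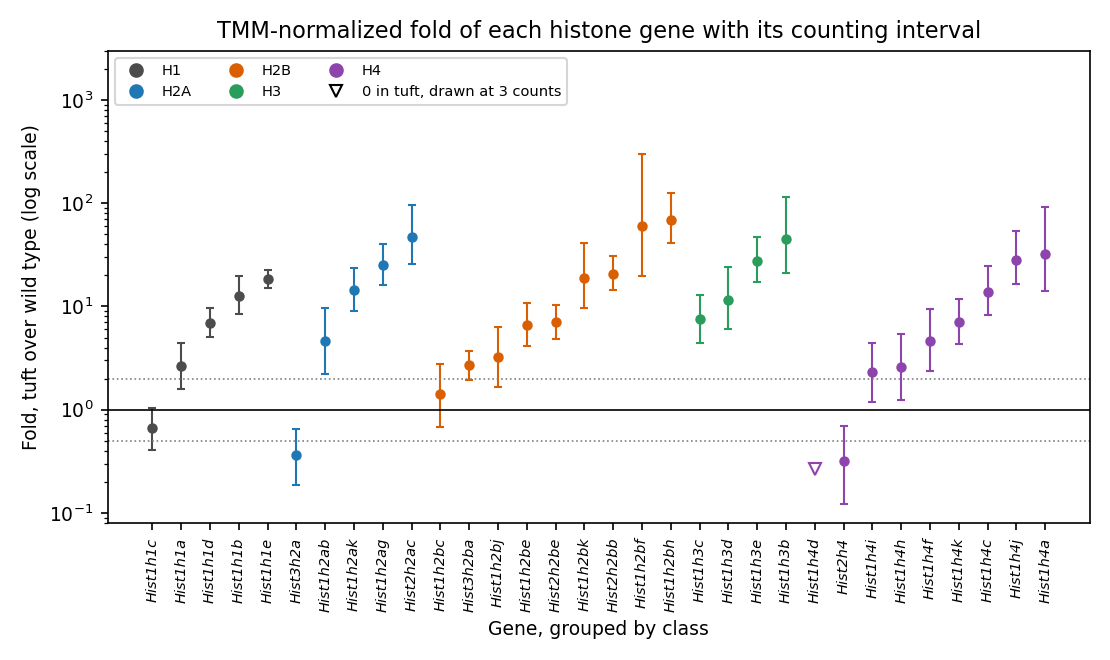
Fold (*tuft* over wild type, log axis) of the same 32 genes, grouped by class and sorted within it, with bars for the 95% counting interval, a solid line at 1 and dotted lines at 2 and 1/2. Intervals of most genes lie above 1 and reach up to 299.8 for *Hist1h2bf*, which had 3 counts in wild type.

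H1 and H2B held the largest shares of the histone counts in both libraries. The share of H1 was 31.2% in *tuft* (exact 95% interval 29.6 to 32.7) and 29.0% in wild type (26.5 to 31.7). H2A held 16.4% (15.2 to 17.7) and 18.2% (16.1 to 20.5), and for both classes the intervals overlap. The H2B share was 28.9% in *tuft* (27.4 to 30.5) and 24.3% in wild type (21.9 to 26.8), and that of H3 11.5% (10.46 to 12.6) and 8.69% (7.17 to 10.41). The H4 share was 12.0% in *tuft* (10.9 to 13.1) and 19.8% in wild type (17.6 to 22.2). The intervals of H2B, H3 and H4 did not meet, those of H3 by a narrow margin, with H2B and H3 higher and H4 lower in *tuft*. These intervals cover counting error within 1 library each and are no test between genotypes. Single genes also weigh on the shares. *Hist1h2bh* alone held 10.3% of the histone counts of *tuft* and 1.23% of those of wild type. Counts were also more concentrated in *tuft*, where 5 genes held 49.8% of them, beside 39.2% in wild type.

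By cluster, the summed fold was highest in Hist1 and Hist2 and lower in Hist3 and Hist4. The large Hist1 cluster on chromosome 13 had 47 members with 2854 counts in *tuft* against 862 in wild type, a fold of 9.64 (8.93 to 10.4), with 25 higher and 1 lower. It lies in 2 blocks on GRCm38. The block from 21715711 to 22043658 held 17 members with 781 and 222 counts, 10.2-fold (8.81 to 11.9). The block from 23531044 to 23934913 held 30 members with 2073 and 640 counts, 9.43-fold (8.63 to 10.3), and the intervals of the blocks overlap.

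Hist2, on chromosome 3, had 6 members with 518 and 157 counts, 9.61-fold (8.02 to 11.6), of which 3 were higher and *Hist2h4* was lower. The 3 Hist3 members on chromosome 11 had 87 counts in *tuft* against 188 in wild type, a fold of 1.35 (1.03 to 1.75), with *Hist3h2ba* higher and *Hist3h2a* lower. Hist3 held 2.52% of the histone counts of *tuft* (2.02 to 3.09) and 15.4% of those of wild type (13.4 to 17.6). Hist4, on chromosome 6, consists of *Hist4h4* with its 0 and 13 counts.

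The members also differed in how far their annotated transcript runs past the stem-loop word, a split that was made after the values had been seen. In 23 members the transcript ended 4 to 74 bases past the word. These had 1964 counts in *tuft* against 404 in wild type, a fold of 14.2 (12.7 to 15.8), with 15 higher and 1 lower, and 12.4 (10.9 to 14.1) without *Hist1h1e*. In 16 members the transcript ran on for 108 to 3050 bases. These had 638 and 542 counts, a fold of 3.43 (3.05 to 3.85), with 7 higher and 2 lower, and 2.55 (2.24 to 2.90) without *Hist1h3e*. Of the 8 with over 500 bases past the word, 3 were higher and 2, *Hist3h2a* and *Hist2h4*, were lower. The background over all symbols with a count was 17.4% higher and 32.6% lower.

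The split did not order single genes. *Hist1h1d*, with 3050 annotated bases past the word, was 6.98-fold higher, and *Hist1h1a*, with 7, was 2.66-fold higher. *Hist1h4d*, with 25 bases past it, was 3.78-fold lower with *tuft* set at 3 counts. In 9 members with a searched UTR the word was not found, and they had 663 and 169 counts, 11.4-fold (9.63 to 13.6). These are in neither part of the split, and their annotated UTRs ran from 27 bases in *Hist1h2bb* to 2192 in *Hist2h2be*. The 2 longest were those of *Hist2h2be* and *Hist2h2bb*, with 2192 and 1117 bases, and these genes were 7.03-fold and 20.7-fold higher. *Hist1h2bc*, with 322 bases, was 1.41-fold. The transcripts are those of GENCODE vM1, and the gene models with which the reads were counted are not given in the sources used here.

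**Figure D4:**
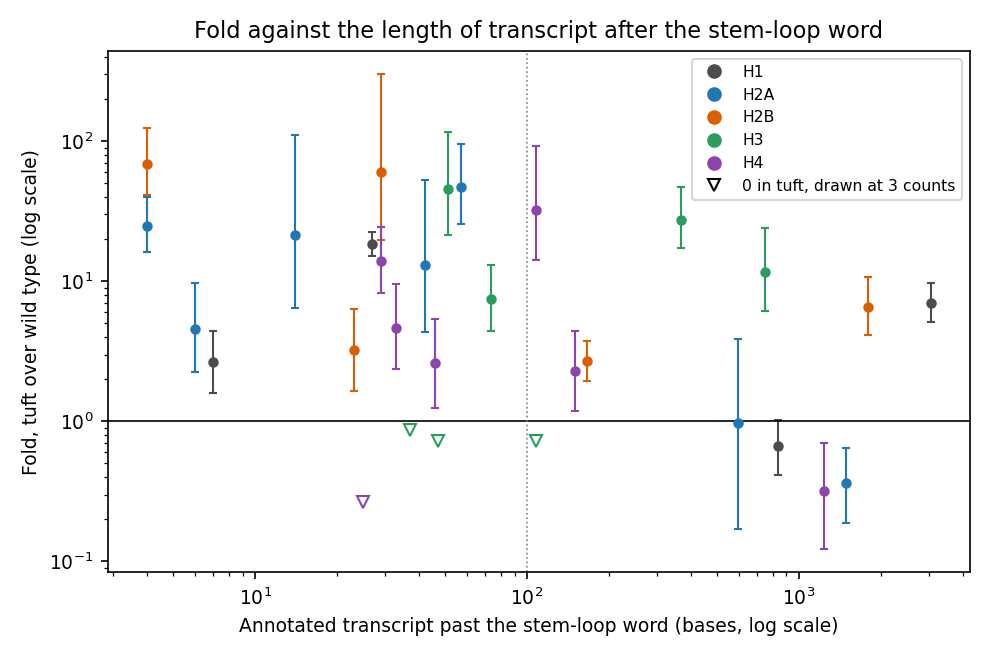
Fold (*tuft* over wild type, log axis, bars for the 95% counting interval) against the bases of annotated transcript past the stem-loop word (log axis) for the 30 members with the word and at least 10 counts, coloured by class. Left of the dotted line at 100 bases most points lie above 1, and right of it they are spread on both sides. Triangles had 0 counts in *tuft* and are drawn at 3 counts.

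The poly-A selection bears on RNAs that lack a tail, so a list of such RNAs was read from the same libraries. Of its 10 members with a count, 3 were past 2-fold higher (30.0%) and 2 lower (20.0%), beside 17.4% and 32.6% of all symbols with a count. *Rmrp*, the RNA of RNase MRP, had 770 counts in *tuft* against 52 in wild type, 43.1-fold (32.5 to 58.3). *Rpph1*, the RNA of RNase P, had 27 and 22, 3.57-fold (1.96 to 6.58). *Rn45s*, the precursor of ribosomal RNA, went the other way, with 49193 and 641391 counts, a fold of 0.223 (0.221 to 0.225), and *Snora81* had 0 and 49. Without *Rn45s* and *Rmrp* the other 8 summed to 45 and 90 counts, 1.46-fold (0.995 to 2.10). How much tailless RNA passed the selection in each library, and its part in the histone folds, was not tested.

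Histone genes of a class are near copies, and a read that aligns to several places is not assigned to a gene. In all entries of the count tables, 59.2% in *tuft* and 51.4% in wild type were such alignments. The median identity between coding sequences was 96.4% in H2A, 97.6% in H2B, 97.6% in H3 and 93.9% in H4, and 4 pairs were identical. The transcripts of 66 of the 68 symbols were cut into windows of 50 bases and looked up in the NCBIM37 genome. The median share of windows found once was 97.7% in H1, 39.6% in H2A, 45.1% in H2B, 42.7% in H3 and 57.0% in H4, and a single window could occur in up to 19 places for H2A. The share depends on window length. With 100 bases it rose from 26.6% to 57.1% in *Hist1h3e* and from 61.2% to 92.5% in *Hist1h2ak*, but only from 18.2% to 20.7% in *Hist1h2ag*. The groups below use 50 bases.

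This bears on the 11 symbols without counts. All 6 genes with under 1% of such windows, *Hist1h2ao*, *Hist1h2ap*, *Hist1h2bq*, *Hist1h2br*, *Hist2h2aa1* and *Hist2h2aa2*, had 0 counts in both libraries, so for them the tables say little about RNA. The other 5 were *Hist1h2ba*, *Hist1h2bn*, *Hist1h4m*, *Hist2h3c1* and *Hist2h3c2*. The 22 members with 1 to 50% unique windows had 1281 and 249 counts, 15.0-fold (13.1 to 17.2), with 12 higher and none lower. The 34 with over 50% had 2178 and 967 counts, 6.56-fold (6.08 to 7.08), with 17 higher and 4 lower (background 17.4% and 32.6%). The part of repeated alignments in the folds was not tested.

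**Figure D5:**
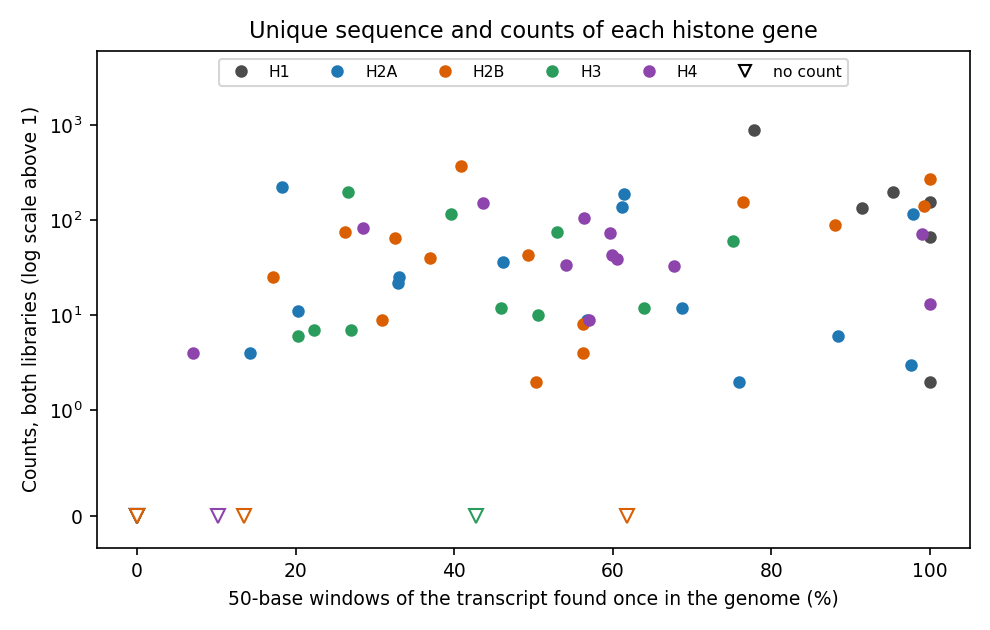
Counts in both libraries together (log axis above 1) against the percentage of 50-base windows of the transcript found once in the genome, for 66 histone genes coloured by class. The 6 genes at 0% have no count (open triangles), and genes with 1 to 100% unique windows have up to 876 counts.

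Members without a count in *tuft* were set beside all symbols of like depth. None of the 57 had 0 counts in wild type (background 1.32%) and 15 had 0 in *tuft*, with 2 to 33 counts in wild type (median 6) and 126 in all. Of the 49 members with 2 to 33 counts in wild type these 15 are 30.6%, where 77.9% of all symbols in that range had no count in *tuft*. With 10 to 33 counts in wild type, 5 of 27 members (18.5%) and 70.1% of all symbols had none. The 5 were *Hist1h4d*, *Hist4h4*, *Hist1h3a*, *Hist1h3f* and *Hist1h3g*.

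Promoters of histone genes share short words that differ by class. The 250 bases before the start of each RefSeq gene (GRCm38.p6) were searched on both strands for 6 words, and 51 members matched a promoter. The CCAAT box, CCAAT, was in 43 of the 51 (37.5% of the promoters of 27025 genes), and in 3 of 11 H4 members. The TATA box, TATAAA, was in 26 (14.3%). The octamer ATTTGCAT was in 7 H2A and 6 H2B members and in no other class (1.81%). The H1 box, AAACACA, was in 5 of 6 H1 members and 8 in all (7.20%), the H4 word GGTCCG in 8 of 11 H4 members and 10 in all (7.69%), and the E2F-like word TTTGGCGC in none (0.485%). TATAAA can share end bases with CCAAT and AAACACA.

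Over all classes the words were about as frequent in the 28 members past 2-fold higher as in the other 23. CCAAT was in 23 of the 28 and 20 of the 23, TATAAA in 14 and 12, and the octamer in 6 and 7. Within H1, TATAAA was in all 4 higher members and in none of the other 2, of which *Hist1h1t* had too few counts to be called. The other classes did not show this. TATAAA was in 2 of 6 higher and 5 of 8 other H2A members, and in 3 of 7 and 3 of 5 in H2B. In H3 it was in 2 of 4 and 2 of 4, and in H4 in 3 of 7 and 2 of 4. The 4 promoters below are those of the member with the most counts, the linker gene that stood apart from it, the member with the highest fold and the member with the most wild-type counts among those at 0 in *tuft*. All are on chromosome 13 of GRCm38, written in the direction of transcription, and capitals mark the words.
Hist1h1e, chr13:23622559-23622808, minus strand: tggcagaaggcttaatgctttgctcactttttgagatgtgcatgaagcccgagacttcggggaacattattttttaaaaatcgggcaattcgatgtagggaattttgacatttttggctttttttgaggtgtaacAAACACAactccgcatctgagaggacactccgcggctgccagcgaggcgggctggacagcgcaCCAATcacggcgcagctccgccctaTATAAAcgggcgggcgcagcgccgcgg
Hist1h1c, chr13:23738557-23738806, plus strand: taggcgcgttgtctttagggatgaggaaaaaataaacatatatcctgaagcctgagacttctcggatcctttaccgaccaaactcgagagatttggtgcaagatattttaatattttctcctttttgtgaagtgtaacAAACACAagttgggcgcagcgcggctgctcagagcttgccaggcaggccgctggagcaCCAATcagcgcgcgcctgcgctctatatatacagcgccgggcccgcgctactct
Hist1h2bh, chr13:23543445-23543694, minus strand: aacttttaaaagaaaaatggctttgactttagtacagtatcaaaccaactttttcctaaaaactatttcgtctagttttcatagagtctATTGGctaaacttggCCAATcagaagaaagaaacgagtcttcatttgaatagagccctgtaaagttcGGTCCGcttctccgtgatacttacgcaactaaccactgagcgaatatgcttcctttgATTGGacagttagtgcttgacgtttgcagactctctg
Hist1h4d, chr13:23581318-23581567, plus strand: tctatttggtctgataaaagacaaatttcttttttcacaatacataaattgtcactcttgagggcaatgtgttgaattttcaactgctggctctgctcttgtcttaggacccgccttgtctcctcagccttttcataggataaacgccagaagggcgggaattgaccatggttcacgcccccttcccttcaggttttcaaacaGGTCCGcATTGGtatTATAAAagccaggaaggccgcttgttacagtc
The H1 box and the CCAAT box were present in both linker promoters, and TATAAA was in that of *Hist1h1e* and not, in these letters, in that of *Hist1h1c*. These matches describe the sequence and not binding.

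Replacement and variant histones are expressed outside S phase, mostly from single genes with poly(A) tails. Of the 11 with a count 3 were past 2-fold higher (27.3%) and 1 lower (9.09%), with a median log2 fold of 0.49. The background over symbols with at least 100 counts in sum was 23.8% and 32.0%. *H2afx*, whose product marks DNA breaks and whose mRNA can end in a stem-loop or in a tail, had 15777 counts in *tuft* against 5445 in wild type, 8.44-fold (8.18 to 8.70). Its annotated UTR held the stem-loop word, as did those of 4 other genes outside the canonical set. *H2afy2*, a macroH2A gene, had 4657 and 3695 counts, 3.67-fold (3.51 to 3.83), and *H2afy* 2263 and 4689, 1.41-fold (1.34 to 1.48). *H2afj*, an H2A variant, had 1 and 294 counts, a fold of 0.00990 (0.000250 to 0.0556).

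Of 18 genes for the transcription and 3′ end processing of histone mRNA 1 was past 2-fold higher (5.56%) and 6 lower (33.3%), with a median log2 fold of -0.11. Among all symbols with at least 100 counts in sum 23.8% were higher and 32.0% lower, so the share of lower genes was near the background. The higher gene was *Slbp*, which encodes the stem-loop binding protein, with 2131 counts in *tuft* against 1896 in wild type, 3.27-fold (3.08 to 3.48). *Zfp473*, a component of the U7 processing complex, had 1 and 142 counts, a fold of 0.0205 (0.000516 to 0.116). *Srrt* and *Sympk*, the 2 other genes with the most counts, had folds of 1.82 (1.75 to 1.88) and 0.973 (0.922 to 1.03).

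Among 17 histone chaperone genes 4 were past 2-fold higher and 4 lower, 23.5% each and not far from that background. *Asf1b*, a carrier of newly made H3 and H4 in S phase, had 3459 and 1050 counts, 9.59-fold (8.95 to 10.3), and *Nap1l4* 6170 and 5028, 3.57-fold (3.44 to 3.71). *Ssrp1*, a subunit of FACT, had 1744 and 11619 counts, a fold of 0.437 (0.415 to 0.460), and *Supt6* 240 and 3336, 0.209 (0.183 to 0.239).

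Of the 25 S phase genes 6 were past 2-fold higher and 10 lower, also near the background, with a median log2 fold of -0.28. *Mcm2*, a subunit of the replicative helicase, had 9746 and 12466 counts, 2.28-fold (2.22 to 2.34). Its partners *Mcm5*, with 2242 and 14631, and *Mcm7*, with 870 and 9455, had folds of 0.446 (0.427 to 0.467) and 0.268 (0.250 to 0.287). *E2f1*, a transcription factor of the S phase genes, had 22 and 963 counts and the lowest fold, 0.0665 (0.0415 to 0.101).

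Markers of the sampled head and of other tissues also differed between the libraries. The 11 yolk sac endoderm markers summed to 1834 counts in *tuft* against 33618 in wild type, a fold of 0.159 (0.151 to 0.167). Of them 9 were past 2-fold lower (81.8%), with *Apoa4*, *Apoc2* and *Soat2* at 0 in *tuft*, and *Amn* was higher, 2.01-fold (1.69 to 2.38). The 10 primitive erythroid markers with a count summed to 228905 and 46241, a fold of 14.4 (14.3 to 14.6), with 4 higher (40.0%) and 3 lower (30.0%). *Hba-x* and *Hbb-y* held most of these counts, and *Gata1* and *Klf1* were at 0 in *tuft*. *Hbb-bh1*, with 5707 and 15430 counts, was 1.08-fold (1.04 to 1.11). The 15 embryonic head markers summed to 8198 and 13718, a fold of 1.74 (1.69 to 1.79), with 5 higher (33.3%) and 3 lower (20.0%). The higher were *Six3*, *Emx2*, *Sox1*, *En1* and *Twist1*. The lower were *Rax*, with 2 and 389 counts, and *Hesx1* and *Pax2*, at 0 in *tuft*. *Otx2*, at 990 and 2104 counts, was 1.37-fold (1.27 to 1.48). Over all symbols with a count 17.4% were higher and 32.6% lower. The part of these tissues in the histone folds was not tested.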

How the data were processed

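RNA-Seq of E9 rostrums was analysed as 1 count column per genotype, *tuft* and wild type. Since 2 *tuft* samples are listed in the labels, the single *tuft* column was assigned to its genotype and not to a sample. The deposited values are raw counts per gene symbol. The authors used poly-A selection and an Ion Proton, trimmed the single-end reads (PRINSEQ), mapped these to mm10 (TopHat 2.0.14, Bowtie2 2.2.5) and ran htseq-count, whose version and settings are not given in the sources used here. Its summary lines were kept out of library totals. They held 59.2%, 12.8% and 0.667% of the entries in *tuft* (not unique, no gene, ambiguous) and 51.4%, 10.8% and 0.526% in wild type.

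Counts were scaled with TMM (edgeR 4.0.16, R 4.3.3). With 1 library per genotype no test could be fitted, and the simulation-based method of the study was not used. Folds and exact intervals were computed with scipy 1.17.1 in Python 3.11.15 and tested on simulated data. No column was left out.

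Members and gene lists were chosen with earlier results of these data known. Named were members with at least 100 counts, those that are alone in a class or cluster, those at 0 in 1 library with the most counts in the other and, per list, genes with the most counts and the highest and lowest folds. Other members were named after their values were seen. One item that the rule names is not reported here. Alternatives were library totals, the upper quartile, DESeq2 1.42.0 size factors, count minimums, fold thresholds and sums without certain members. Of 68 symbols 67 matched RefSeq (GRCm38.p6) by symbol or synonym and 66 GENCODE vM1 by symbol. Sequences are from these references. Searches in NCBIM37 used sequence alone and no coordinates.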

Additional observations from a re-analysis of the deposited data

How the results depend on the processing

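Over the alternatives, 24 to 29 members were past 2-fold higher, beside 29 as reported. Past 2-fold lower were 4 as reported, 7 with library totals, 2 at a fold threshold of 4 and 3 or 4 otherwise. The 2 are *Hist1h4d* and *Hist4h4*, whose fold is taken as 0. With *tuft* at 3 counts they were 3.78-fold and 1.49-fold lower, so neither was shown to be past 4-fold. The summed fold, 8.26 as reported, was 6.28 with library totals, 7.16 without *Hist1h1e* and 9.57 without the 4 members that overlap another gene. The median fold over 53 members, with zeros at 3 counts, was 2.69. In the split by transcript end, chosen after the data had been seen, it was 14.2 and 3.43. None of 48 log2 folds, those of 16 named members under 3 other normalizations, changed sign. A normalization shifts every log2 fold by the same amount, so this is not separate evidence for each member. The log2 fold nearest 0, that of *Hist1h1c*, was -0.596 as reported and -0.990 to -0.549 under the others. No paired analysis was possible because each genotype has 1 library, and no replicate could be left out. Wild type was 2.22 times as deep, so members with few counts could show a change in *tuft* only with wide intervals.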
